A study of Mus musculus with 9 samples.

Results

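Bile acids and other organic anions cross the hepatocyte through a small set of membrane carriers, and 10 genes for these carriers were followed here in the liver of diabetic mice with steatohepatitis. They were the uptake carriers Slc10a1, Slco1a1, Slco1a4 and Slco1b2, the canalicular pumps Abcb11 and Abcc2, and the basolateral exporters Abcc3, Abcc4, Slc51a and Slc51b. A member was any non-control probe whose RefSeq accession, without its version, belonged to 1 of these symbols. This gave 11 probes for the 10 genes, of 20972 genes that could be named on the array, and 9 of the 10 genes passed the filter on dim probes. In the untreated STAM mice Slco1b2 was the single member called lower than in Normal mice, in the insulin-treated STAM mice it was Slco1a4, and no member was called between insulin-treated and untreated STAM mice. These are 1, 1 and 0 of 9 tested members, counted by the brighter probe of a gene, beside 16.8%, 13.6% and 0.0822% of all tested genes. The dimmer probe of Slc10a1 was also called lower in the untreated STAM mice. Each of these calls was lost under part of the alternative settings given below.

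Total RNA of liver from male mice at 20 weeks of age was hybridised to 9 one-colour Agilent arrays, 3 in each of 3 groups. STAM mice are C57B/6J males given a low dose of streptozotocin by subcutaneous injection soon after birth, which damages the insulin-secreting beta cells of the pancreas, and a high-fat diet from weaning. They become diabetic without marked obesity and develop fatty liver inflammation, fibrosis and liver tumours. STAM-NON mice received streptozotocin and the high-fat diet with no further treatment, STAM-INS mice received the same and were also injected subcutaneously with insulin glargine, a long-acting insulin, and Normal mice were lean mice kept without the high-fat diet. Both STAM groups therefore differ from Normal by drug and diet together, and the sources do not say whether tumour tissue was part of the liver pieces used for the arrays. The methods count 3 mice in each group, so replicates are taken as mice.

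All 6 STAM arrays lay on slide 1 and all 3 Normal arrays on slide 2, so slide and group cannot be told apart where Normal is compared. STAM-INS and STAM-NON share 1 slide but are not spread evenly over its rows. All 3 STAM-NON arrays and STAM-INS 1 were in row 1, and STAM-INS 2 and 3 were in row 2. The Normal arrays were in row 2 of their slide. Row therefore goes with group in full for STAM-NON against Normal, and in part between the STAM groups. From 46.2% to 65.0% of 59305 non-control spots per array were well above background, and no spot was saturated. The arrays of STAM-NON 1, STAM-NON 3 and STAM-INS 1 stood apart with 59.3% to 65.0% of spots well above background, against at most 51.1% on the others. All 3 were in row 1. Levels are given as centred log2 signal, from which each array's own 75th percentile was subtracted, so that 0 is the signal of a probe at that percentile. The level of 1 probe is never set against that of another. Differences were tested with limma over 26278 probes, a call is an adjusted p under 0.05, and a gene with 2 probes is counted by the brighter one.

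The hepatocyte takes up bile acids from blood at its sinusoidal face and secretes them at its canalicular face into bile. NTCP, encoded by Slc10a1, takes up conjugated bile acids together with sodium, and the OATP carriers encoded by Slco genes take up unconjugated bile acids, bilirubin, steroid conjugates and drugs without sodium. The pumps BSEP (Abcb11) and MRP2 (Abcc2) secrete bile salts and organic anion conjugates into bile. MRP3 (Abcc3), MRP4 (Abcc4) and the heteromeric carrier OSTα/β (Slc51a and Slc51b) return bile acids from the cell to blood, and they are known to be induced when bile acids accumulate. Several of these genes are known targets of nuclear receptors, above all FXR (Nr1h4), and of the antioxidant factor Nrf2 (Nfe2l2).

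The 250 bases before the start of transcription are shown for the 3 Slco members, in which the calls and the widest differences were seen, and for Slc51b, whose mean was higher in both STAM groups. They are RefSeq promoter windows of the assembly GRCm38.p6, written 5′ to 3′ on the strand of the gene, and capitals mark each AGGTCA, the hexamer that many nuclear receptors bind, or its reverse complement TGACCT.
Slco1b2, chr6:141629268-141629517, strand +: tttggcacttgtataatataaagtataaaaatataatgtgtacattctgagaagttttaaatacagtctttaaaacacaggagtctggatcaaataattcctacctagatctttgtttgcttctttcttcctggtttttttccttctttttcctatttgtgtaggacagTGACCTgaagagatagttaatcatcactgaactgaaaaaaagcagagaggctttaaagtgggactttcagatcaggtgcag
Slco1a1, chr6:141946963-141947212, strand -: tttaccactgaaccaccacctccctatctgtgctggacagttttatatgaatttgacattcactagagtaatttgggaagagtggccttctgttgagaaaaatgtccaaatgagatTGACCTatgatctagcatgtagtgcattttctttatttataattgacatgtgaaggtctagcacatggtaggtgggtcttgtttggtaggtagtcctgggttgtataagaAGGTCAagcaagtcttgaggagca
Slco1a4, chr6:141856221-141856470, strand -: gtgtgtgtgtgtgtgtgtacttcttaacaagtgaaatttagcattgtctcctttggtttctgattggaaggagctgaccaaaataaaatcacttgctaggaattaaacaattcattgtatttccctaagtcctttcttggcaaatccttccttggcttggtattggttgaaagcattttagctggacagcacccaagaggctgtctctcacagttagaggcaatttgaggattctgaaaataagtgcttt
Slc51b, chr9:65422774-65423023, strand -: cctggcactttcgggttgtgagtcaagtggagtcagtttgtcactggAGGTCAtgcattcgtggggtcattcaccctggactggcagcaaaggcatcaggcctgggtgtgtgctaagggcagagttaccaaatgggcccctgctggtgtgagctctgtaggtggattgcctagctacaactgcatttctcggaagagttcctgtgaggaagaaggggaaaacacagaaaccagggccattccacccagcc
The 3 Slco genes lie on chromosome 6 as close neighbours, in the order Slco1b2, Gm5724, Slco1a4 and Slco1a1 among protein-coding genes, with Slco1b2 on the other strand. Windows were found for 9 of the 10 members and not for Abcc3, and they numbered 11 because Slc10a1 and Abcc4 have 2 starts each. AGGTCA on either strand was present in 7 of the 11 windows and in 4607 of all 32851 windows of this length. It stood 81 bases before the start of Slco1b2, 134 and 24 bases before that of Slco1a1 and 203 bases before that of Slc51b, and it was absent from the window of Slco1a4. The Slc10a1, Abcb11, Abcc2 and Slc51a windows also held it, whereas neither Abcc4 window did. The core of the antioxidant response element, TGACNNNGC on either strand, was found in both Abcc4 windows and in that of Abcc2, beside 10.2% of all windows. Of the other motifs searched, each on either strand, AGTTCA was in Abcb11 and Slco1b2 (11.8% of all windows), GTTAAT, part of the HNF1 site, in Slco1b2 (6.43%), CACGTG in Abcc4 and Slc51a (6.02%) and TATAAA in Slco1b2, Slco1a1 and 1 of the Slc10a1 windows (12.4%). AGTTCA in Slco1b2 and TATAAA in Slco1a1 lay on the strand opposite to the one shown, which reads TGAACT and TTTATA there. An exact inverted repeat of AGGTCA with 1 base between its arms, the perfect form of the classical FXR element, was in no member window and in 2 of all windows. So rare a match makes its absence from the member windows uninformative. Inexact copies of the element, in Abcb11 or elsewhere, were not searched. These 7 motifs were chosen with the member windows in view, and a match in a window of this length is a description of letters and does not show binding.

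Slco1b2 encodes OATP1B2, the main OATP carrier of the mouse hepatocyte, which clears conjugated bilirubin and unconjugated bile acids from portal blood. Its centred log2 signal was 6.56, 7.50 and 6.81 on the STAM-NON arrays, 7.38, 6.94 and 7.59 on the STAM-INS arrays, and 7.84, 8.02 and 7.95 on the Normal arrays. All 6 STAM arrays lay below the lowest Normal array, and the STAM-NON and STAM-INS arrays overlapped. Slco1b2 fell by 0.98 ± 0.25 (SE) in STAM-NON, from 7.94 ± 0.09 to 6.96 ± 0.49 (SD, n = 3 each), which is 1.97-fold lower (adjusted p = 0.0369, limma). The STAM-INS mean was 7.31 ± 0.33, with a difference from Normal of -0.63 (1.55-fold, adjusted p = 0.126) and from STAM-NON of 0.35 (95% confidence interval -0.23 to 0.93). The call in STAM-NON did not survive the removal of several single arrays: the adjusted p was 0.0993 without STAM-NON 1, 0.0957 without STAM-NON 3, 0.0537 without STAM-INS 1, and 0.0852, 0.0994 and 0.0981 without Normal 1, 2 and 3. Without the 3 arrays that stood apart the difference was -0.44 (0.446). In bulk liver RNA, fewer hepatocytes and less RNA per hepatocyte cannot be told apart.

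Slco1a1 encodes OATP1A1, a carrier of steroid conjugates and bile acids that male mouse liver expresses far above female liver under growth hormone control. The centred log2 signal was 3.42, 3.48 and 3.60 in Normal, -4.20, 1.36 and 2.14 in STAM-NON and 1.79, 0.46 and 2.25 in STAM-INS. In processed signal this ran from 16.3 on the STAM-NON 1 array to 1268 on STAM-NON 3, against 2613 to 2732 on the Normal arrays. No member varied more within a group, and every STAM array again lay below every Normal array. The STAM-NON difference from Normal was -3.73 ± 1.43 (adjusted p = 0.102) and the STAM-INS mean was 4.01-fold lower (adjusted p = 0.359), so neither was called. STAM-NON 1 decided the spread: without it the STAM-NON difference was -1.75 (adjusted p = 0.0757), the STAM-INS difference from Normal passed the threshold at an adjusted p of 0.03, and the difference of STAM-INS from STAM-NON turned from 1.73 to -0.25.

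Slco1a4, encoding OATP1A4, a carrier of bile acids and cardiac glycosides that is concentrated around the central vein, showed the clearest difference in insulin-treated mice. Its levels were 1.58, 1.93 and 1.25 in Normal, 1.15, -0.81 and -0.52 in STAM-NON and 0.44, -1.29 and -0.92 in STAM-INS. The STAM arrays all lay below the Normal arrays, and the first replicate of each STAM group was the highest of its group. Slco1a4 fell by 2.17 ± 0.58 in STAM-INS, from 1.59 ± 0.34 to -0.59 ± 0.91, which is 4.51-fold lower (adjusted p = 0.0425). In STAM-NON the difference was -1.65 ± 0.58 (3.14-fold, adjusted p = 0.0827), and STAM-INS did not differ from STAM-NON beyond its spread (-0.52, 95% confidence interval -1.85 to 0.80). The STAM-INS call was lost without STAM-NON 2 (adjusted p = 0.0537), without STAM-INS 2 (0.143) or STAM-INS 3 (0.109), and without Normal 1, 2 or 3 (0.105, 0.116 and 0.0909). Without STAM-NON 1, the STAM-NON difference was -2.25 and passed at an adjusted p of 0.0426. Slco1a1 and Slco1a4 are close paralogs, and cross-hybridisation between their probes was not tested because probe sequences were not used here.

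Slc10a1, the sodium-dependent carrier NTCP, was represented by a pair of probes for the same accession, which disagreed. The brighter probe gave 9.66, 9.85 and 9.96 in Normal, 9.66, 9.93 and 9.76 in STAM-NON and 9.86, 9.81 and 9.84 in STAM-INS, so the groups overlapped. Its STAM-NON difference from Normal was -0.04 (95% confidence interval -0.32 to 0.24) and that of STAM-INS was 0.01 (-0.26 to 0.29). On this probe the intervals leave out a change of the size measured for Slco1b2. Its processed signal was 198946 to 250206 across the arrays, and whether so bright a probe responds in proportion was not tested. The dimmer probe gave 4.66, 5.11 and 4.95 in Normal, 4.30, 4.34 and 4.14 in STAM-NON and 4.55, 4.53 and 4.81 in STAM-INS. On the dimmer probe STAM-NON lay below both other groups on every array, and its signal fell by 0.65 ± 0.15 against Normal (1.56-fold lower, adjusted p = 0.0269). The 95% confidence interval was -0.98 to -0.31, with the Slco1b2 difference of -0.98 at its lower end. STAM-INS stood between, with a difference from STAM-NON of 0.37 ± 0.15 (adjusted p = 0.543). That call was lost without STAM-NON 1 (adjusted p = 0.0637), STAM-NON 3 (0.0704), Normal 2 (0.0817) or Normal 3 (0.0829), and Slc10a1 is counted below by its brighter probe, which was not called.

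**Figure D1:**
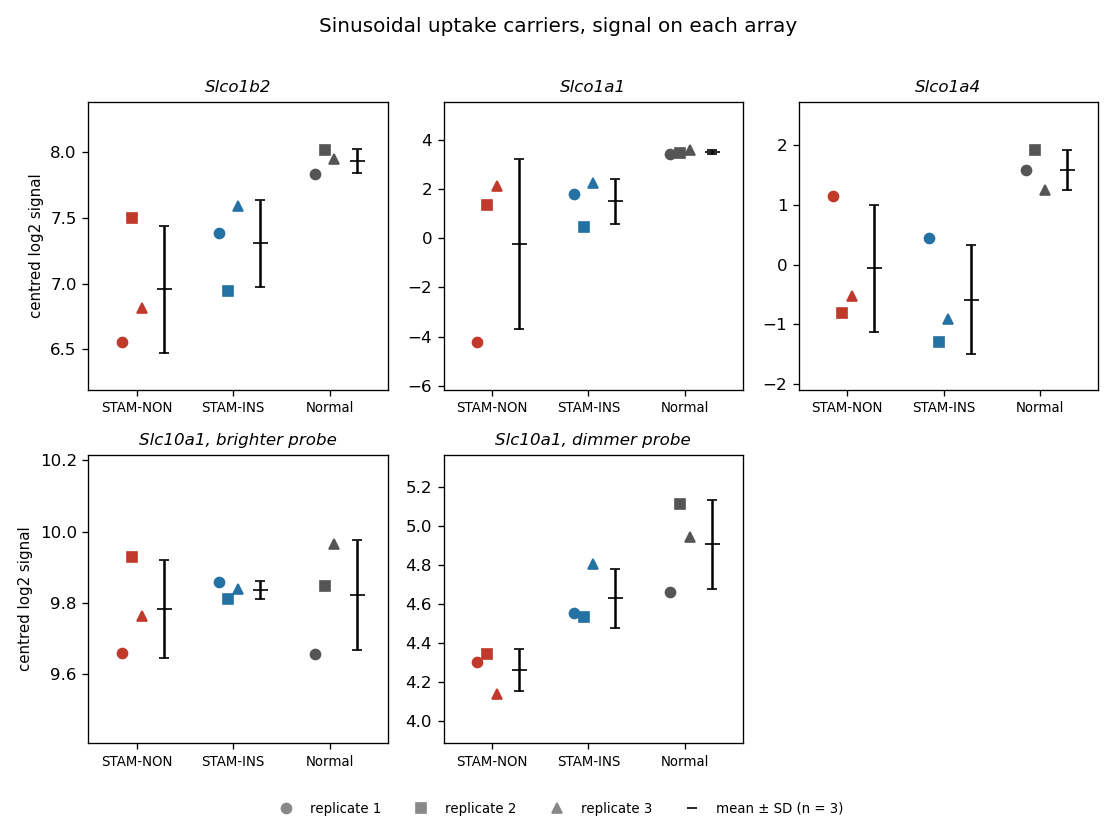
Centred log2 signal (vertical axis) of the uptake carriers on each of the 9 arrays, by group. Symbols are replicates 1 to 3 and bars are the mean ± SD of 3 arrays. For Slco1b2, Slco1a1 and Slco1a4 the 6 STAM arrays lie below the 3 Normal arrays, STAM-NON 1 is at -4.20 for Slco1a1, and the probes of Slc10a1 differ in pattern. Vertical scales differ between panels.

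Abcb11 encodes the bile salt export pump, the rate-limiting step of bile salt secretion into bile and a textbook target of FXR. Its levels were 6.72, 6.61 and 6.61 in Normal, 5.09, 6.38 and 5.74 in STAM-NON and 6.42, 6.57 and 6.89 in STAM-INS. The STAM-INS and Normal arrays shared a range, and all 3 STAM-NON arrays lay below both. The Normal mean was 6.65 ± 0.06, the STAM-NON mean 5.74 ± 0.65 and the STAM-INS mean 6.63 ± 0.24. The difference of STAM-NON from Normal was -0.91 ± 0.29 (1.88-fold, adjusted p = 0.0641) and that of STAM-INS from STAM-NON was 0.89 ± 0.29 (1.85-fold, adjusted p = 0.492), and neither was called. Between STAM-INS and Normal the difference was -0.02 (95% confidence interval -0.68 to 0.64). Leaving out STAM-NON 2, the highest of its group, gave -1.23 and a call against Normal (adjusted p = 0.0166), and leaving out STAM-NON 1, the lowest, gave -0.58 (0.131).

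Abcc2, which encodes MRP2, the canalicular pump for bilirubin glucuronides and glutathione conjugates, showed small differences. Its levels were 4.40, 4.29 and 4.60 in Normal, 4.27, 4.40 and 3.88 in STAM-NON and 4.25, 3.67 and 4.28 in STAM-INS. STAM-NON and Normal overlapped, and the STAM-INS arrays lay just below the Normal ones, by 0.01 between the nearest arrays. The differences from Normal were -0.25 (95% confidence interval -0.71 to 0.22) in STAM-NON and -0.36 (-0.83 to 0.11) in STAM-INS.

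Abcc3 encodes MRP3, which exports glucuronides and bile acids across the sinusoidal membrane. It gave 6.09, 6.03 and 6.05 in Normal, 5.80, 5.56 and 4.36 in STAM-NON and 5.15, 4.48 and 5.16 in STAM-INS. The Normal arrays agreed within an SD of 0.03, and all 6 STAM arrays lay below them. The difference from Normal was -0.82 ± 0.36 in STAM-NON (1.76-fold, adjusted p = 0.139) and -1.13 ± 0.36 in STAM-INS (2.18-fold, adjusted p = 0.0683), without a call, although without STAM-NON 3 the STAM-INS difference passed at an adjusted p of 0.0136. Between the STAM groups it was -0.31 (95% confidence interval -1.12 to 0.50).

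Abcc4, encoding MRP4, which exports bile acids together with glutathione and is a known Nrf2 target, was high on 1 array of each STAM group. Its levels were -0.92, -1.15 and -0.76 in Normal, 1.44, -0.16 and -1.09 in STAM-NON and 1.21, -1.11 and -0.96 in STAM-INS. STAM-NON 1 and STAM-INS 1 therefore stood above all other arrays, and the remaining STAM-INS arrays lay within the Normal range. These were also the STAM arrays with the highest Slco1a4 signal, and they are among the 3 arrays with most spots well above background, whose part in the result was not tested. The differences from Normal were 1.01 ± 0.73 in STAM-NON (adjusted p = 0.348) and 0.66 ± 0.73 in STAM-INS (0.56). Without STAM-INS 1 the latter was -0.09.

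Slc51b, the β subunit of the carrier OSTα/β and in other settings one of the most strongly FXR-induced genes, had the highest mean difference from Normal of the tested members, without a call. It gave -3.46, -1.55 and -2.90 in Normal, -0.49, -0.66 and -1.60 in STAM-NON and -1.59, 0.11 and -0.88 in STAM-INS. Normal 2 reached the lowest array of each STAM group, so the groups overlapped narrowly. The mean was 3.29-fold higher in STAM-NON (1.72 ± 0.58, adjusted p = 0.074) and 3.61-fold higher in STAM-INS (1.85 ± 0.58, adjusted p = 0.066). Without Normal 2 the STAM-INS difference was 2.40 and passed at an adjusted p of 0.0456, the only call in 26 alternatives. Over these the difference ran from 0.96 to 2.40 in STAM-INS, and from 0.89 to 2.92 in STAM-NON without a call. The processed signal was low on the Normal arrays, at 22.4 to 80.2. The STAM groups differed by 0.13 (95% confidence interval -1.19 to 1.45). Its partner subunit Slc51a was not tested, since it was well above background on 1 of 3 STAM-NON arrays, 2 of 3 STAM-INS arrays and 0 of 3 Normal arrays. Slc51a means were -5.05 ± 0.95, -4.66 ± 1.27 and -5.57 ± 0.21, and no fold is given because the STAM means lay under the lowest level counted as detected on the Normal arrays.

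**Figure D2:**
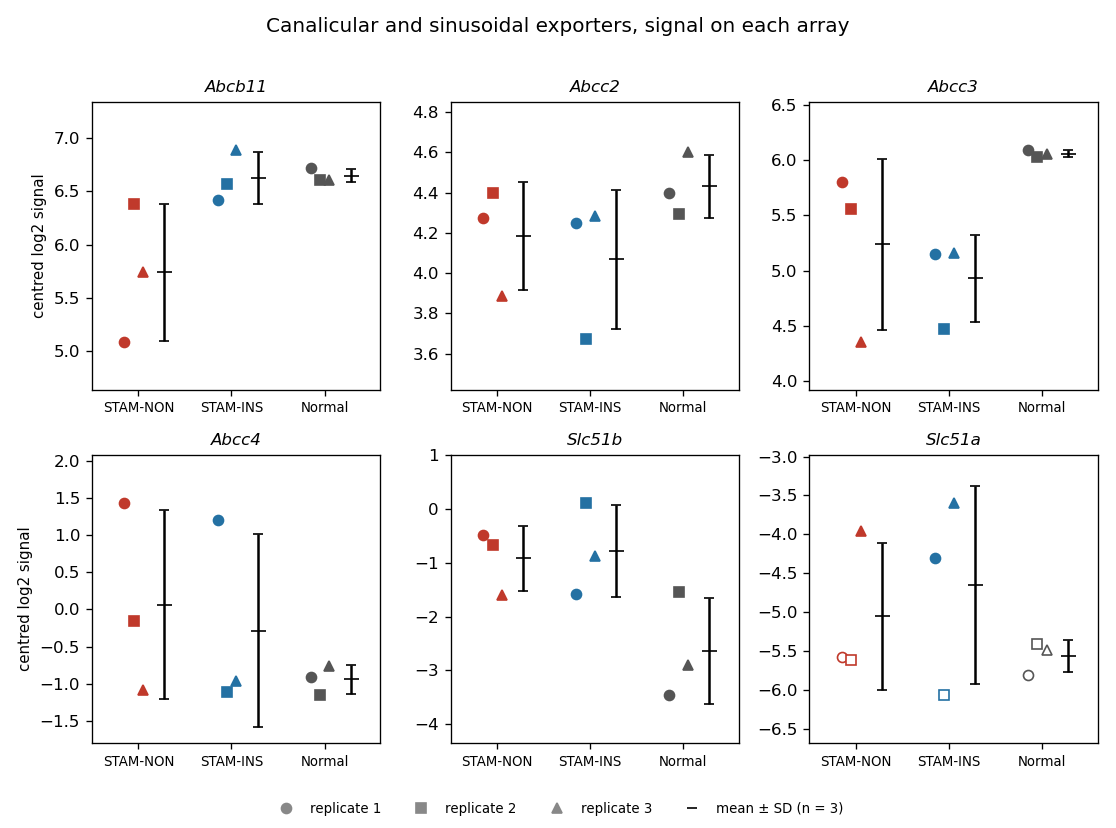
Centred log2 signal (vertical axis) of the canalicular pumps and sinusoidal exporters on each array, by group. Filled symbols are well above background, open symbols are not, and bars are the mean ± SD of 3 arrays. Abcb11 is below both other groups on the 3 STAM-NON arrays, Abcc4 is at 1.44 on STAM-NON 1 and 1.21 on STAM-INS 1, and Slc51a is open on all Normal arrays. Vertical scales differ between panels.

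Between STAM-NON and Normal, 7 of the 9 tested members had a lower mean in STAM-NON, and 1 of 9 was called, beside 16.8% of 13386 genes called in either direction, 8.93% lower and 7.87% higher. The groups did not overlap for 5 of 9 members, Slco1b2, Slco1a1, Slco1a4, Abcb11 and Abcc3, all lower in STAM-NON, where 26.0% of genes were lower without overlap and 14.9% higher. At an unadjusted p under 0.05 the count was 6 of 9, against 36.2% of genes. The median difference of the members was -0.82, and that of all genes was -0.11. By role, the median was -1.31 for the 4 uptake carriers, -0.58 for the 2 canalicular pumps and 1.01 for the 3 tested exporters, whose means split with Abcc3 lower and Abcc4 and Slc51b higher. Without STAM-NON 1 the same 5 members did not overlap, beside 28.8% of genes lower. They did so too without the 3 arrays that stood apart, where 1 STAM-NON array was left and 35.8% of genes were lower. In that setting 2 members, Abcc4 and Slc51b, were also higher without overlap, beside 30.6% of genes, against 0 with all arrays.

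Between STAM-INS and Normal, 1 of 9 members was called, beside 13.6% of genes in either direction, 7.49% lower and 6.15% higher. Again 5 members lay lower without overlap, where 27.3% of genes did so and 17.6% were higher without overlap. They were Slco1b2, Slco1a1, Slco1a4, Abcc3 and Abcc2, so Abcb11 had left the list and Abcc2 had joined it. At an unadjusted p under 0.05 there were 4 of 9, against 32.1% of genes. The median difference was -0.36 beside -0.07 for all genes. The Normal arrays are shared by these comparisons.

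Between STAM-INS and STAM-NON, which lie on the same slide but mostly in different rows, no member was called with limma, beside 0.0822% of genes, 0.0224% higher and 0.0598% lower. Only Abcb11 passed an unadjusted p of 0.05, against 9.32% of genes, and it was also the only member, by its brighter probe, whose groups did not overlap (7.77% of genes were higher and 4.89% lower without overlap). The members' median difference was 0.05 beside 0.03 for all genes. Counted by the brighter probe, no member was called under any of 27 alternative settings. The dimmer Slc10a1 probe passed 0.05 in 1 of them, the methods' t-test without adjustment, and not after Benjamini-Hochberg adjustment.

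**Figure D3:**
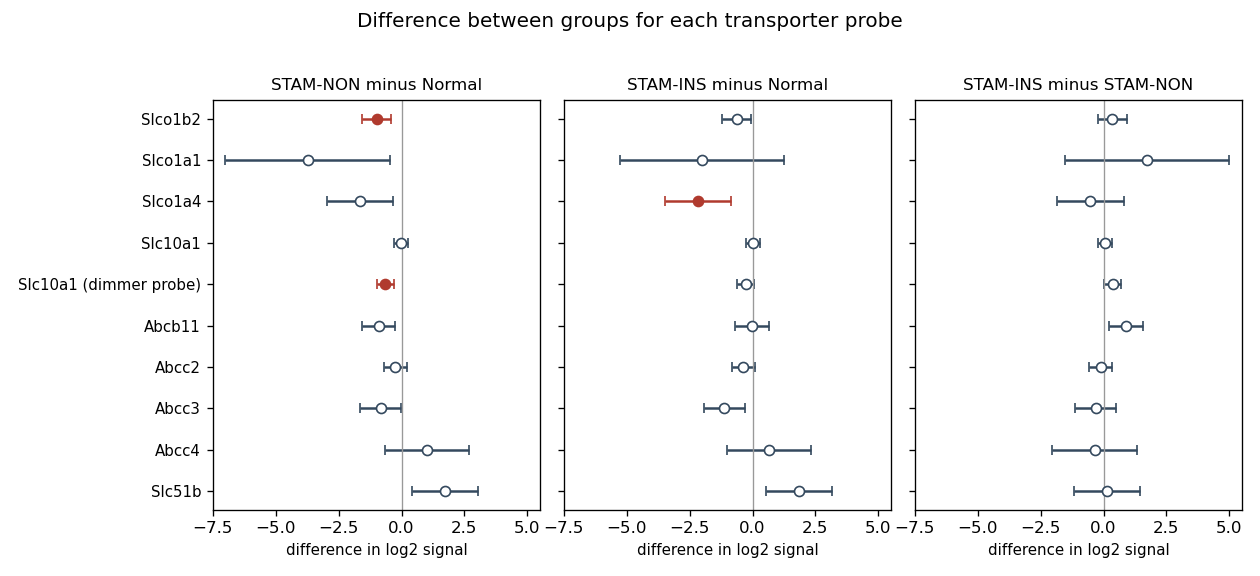
Difference in log2 signal (horizontal axis) for each tested transporter probe in the 3 comparisons, with 95% confidence intervals from limma. Red filled points are called at an adjusted p under 0.05: Slco1b2 and the dimmer Slc10a1 probe in STAM-NON minus Normal, and Slco1a4 in STAM-INS minus Normal. No point is filled in STAM-INS minus STAM-NON.

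How the arrays were centred mattered for these calls. The median of all probes in STAM-NON minus Normal was -0.13 as reported, -0.29 with the median as centre and 0.18 with the E1A spike-in controls as centre, and with the spike-ins 2737 probes were called higher and 458 lower in place of 1655 and 2565. In STAM-INS minus Normal the split was 1492 and 714 in place of 1355 and 2292. Another centre shifts all probes of an array by the same amount, so of the scalings tried only quantile normalization and background correction could move a member relative to the other probes. Relative to the median of all probes in STAM-NON, Slco1b2 was at -0.85 as reported and at -0.67 after quantile normalization, and Abcb11 at -0.78 and -0.60. Slco1a4 was at -1.51 and -1.53, Slco1a1 at -3.60 and -3.58, and Slc51b at 1.85 and 1.70. The brighter Slc10a1 probe was at 0.10 and 0.28, and its difference from Normal changed sign with the scaling. The calls depended on the scaling: Slco1b2 in STAM-NON had an adjusted p of 0.0567 with the percentile over detected probes and 0.08 with quantile normalization, and Slco1a4 in STAM-INS had 0.0635 and 0.0571. With the spike-ins as centre no member was called in either comparison, and Slco1b2 had an adjusted p of 0.0718 in STAM-NON and Slco1a4 one of 0.0898 in STAM-INS.

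**Figure D4:**
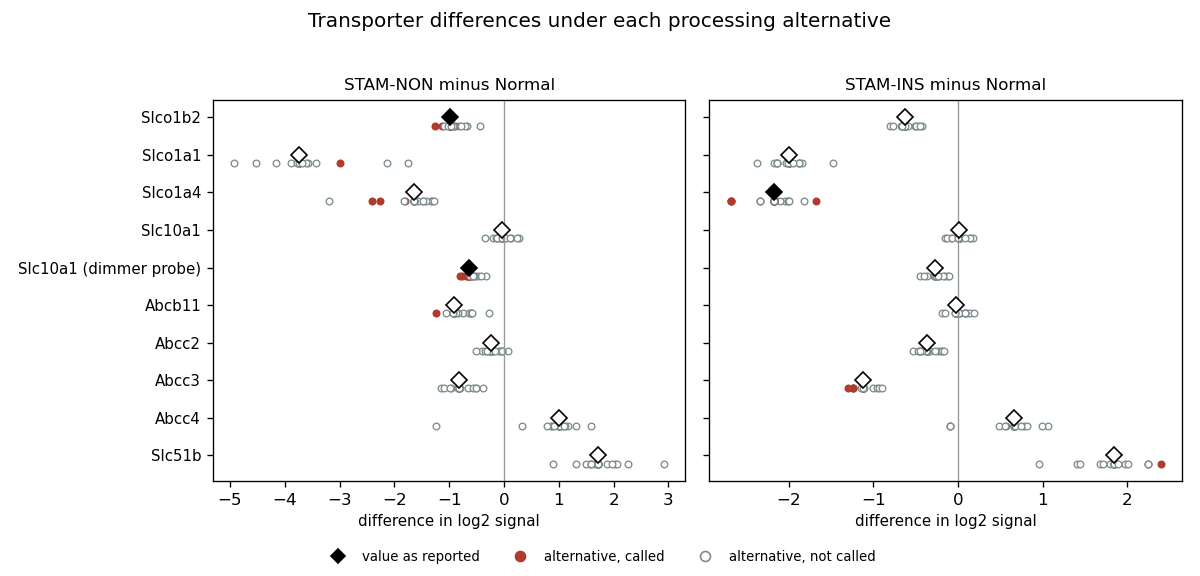
Difference in log2 signal (horizontal axis) from Normal for each member, as reported (black diamonds, filled where called) and under each processing alternative (circles, red where called under that alternative). Slco1b2 in STAM-NON spans -1.25 to -0.44 and Slco1a4 in STAM-INS spans -2.69 to -1.68. Each stays below 0.

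Other carriers of the same kinds were followed beside the members. Of all tested genes, 8.93% were called lower and 7.87% higher in STAM-NON, with a median difference of -0.11. In STAM-INS these shares were 7.49% and 6.15%, with a median of -0.07. The counts for this and each following list stand beside these values, without a test of the list. Of 9 tested further uptake carriers, 1 was called lower and 1 higher in STAM-NON than in Normal. Slco2b1, a broad OATP carrier, fell by 0.60 (adjusted p = 0.0323) and Slco3a1, a prostaglandin carrier, rose by 0.66 (0.0233). The Slco2b1 call was lost with the spike-ins (-0.29, 0.176), the percentile over detected probes (0.086) and quantile normalization (0.125), and the Slco3a1 call with the median as centre (0.116). In STAM-INS 1 of the 9 was called, Slco4a1, a thyroid hormone carrier that fell by 1.31 (0.00982). Only 1 of 3 STAM-INS arrays had Slco4a1 well above background, and with normexp background correction the difference was -0.49 (0.0363). Slco1a5 and Slco1a6 were well above background on no array. The list's median was -0.29 in STAM-NON, where it turned above 0 with the spike-ins, and -0.18 in STAM-INS. Of 14 further efflux pumps, 3 were called higher and 1 lower in STAM-NON. Abcc5, a cyclic nucleotide pump, rose by 1.31 (adjusted p = 0.0106), Abcc12 rose by 2.28 (0.0207), and Abcc6, the hepatocyte pump involved in ATP release, fell by 0.95 (0.0129). In STAM-INS the same 3 genes were the ones called, by 1.13, 2.68 and -0.71. Abcc12 was well above background on 1 of 3 Normal arrays, and with normexp its difference was 0.72 in STAM-NON, without a call (0.0789), and 0.97 in STAM-INS (0.0371). The Abcc6 call in STAM-INS was lost with the spike-ins (0.058).

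Receptors that control the transporters were compared next. In STAM-NON 3 of 16 tested regulators were called lower and 0 higher, beside 8.93% and 7.87% of all tested genes. Their median was -0.31, beside -0.11. Rxra, the common partner of these receptors, fell by 0.61 (adjusted p = 0.0219), Nr1i3, which encodes CAR, by 0.81 (0.0279), and Nr1h4, which encodes FXR, by 0.46 (0.0454). In STAM-INS 4 of 16 were called lower and 0 higher, beside 7.49% and 6.15% of all tested genes, and 11 of 16 had a lower mean. The lowest p was that of Nr1i3, which fell by 1.06 (0.0119), followed by Ppara, the fatty acid receptor, which fell by 0.86 (0.0229), and Nr1i2, which encodes the xenobiotic receptor PXR and fell by 0.61 (0.0288). Nr1h4 was the remaining gene called, and fell by 0.51 (0.0364). The Nr1h4 calls in STAM-NON and STAM-INS were both lost with the spike-ins, the median, the percentile over detected probes and quantile normalization. With the spike-ins as centre, 0 regulators were called lower and 2 higher in STAM-NON, with 8 of 16 means lower, so the direction of this list depended on the centre. In STAM-INS the regulators called lower were 2 with the median as centre, 2 with quantile normalization and 1 with the spike-ins. The Ppara call was lost with the spike-ins (0.0777), and the Nr1i2 call with the spike-ins (0.149), the median (0.0504) and quantile normalization (0.0566). Nfe2l2 itself was not called in either comparison (0.35 in STAM-NON and 0.36 in STAM-INS). Of 8 tested Nrf2 target genes, 2 were called higher in each STAM group. G6pdx, of the pentose phosphate pathway, rose by 1.33 in STAM-NON and 1.85 in STAM-INS (adjusted p = 0.019 and 0.00584), and Srxn1, which repairs oxidised peroxiredoxins, rose by 0.96 and 1.09 (0.0328 and 0.0236), without a call when the median was the centre (0.087 and 0.0657). The remaining 6 were not called. Of the 8 means, 4 were higher and 4 lower in STAM-NON, and 5 were higher and 3 lower in STAM-INS. With normexp 3 of these targets were called higher and 1 lower in STAM-NON.

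The enzymes that make and conjugate bile acids gave 6 of 12 called lower in STAM-NON, beside 8.93% of all tested genes. Their median was -0.56, beside -0.11. Scp2, a sterol carrier of peroxisomes with the thiolase that shortens the side chain, fell by 0.52 (adjusted p = 0.0356), Akr1d1, the steroid 5β-reductase, by 0.58 (0.0408), and Cyp27a1, the sterol 27-hydroxylase, by 1.08 (0.0441). None of the 12 was called lower with the spike-ins, quantile normalization or the percentile over detected probes. Under each of these 10 of 12 had a lower mean and 1 was called higher. With normexp 1 was called higher and 7 lower in STAM-NON. In STAM-INS 0 of 12 were called lower, 1 was called higher, and the median was -0.34. That gene was Cyp8b1, the sterol 12α-hydroxylase that sets the share of cholic acid, which rose by 1.74 (0.017). Because Slco1a1 is a male-biased gene, other genes of that kind were set beside it. In STAM-NON 3 of 11 were called lower and 11 of 11 had a lower mean (10 of 11 with the spike-ins or quantile normalization), with a median of -1.77. They were Hsd3b5, a steroid reductase, which fell by 8.31 (adjusted p = 0.0289) with 2 of 3 STAM-NON arrays well above background, Nudt7, a peroxisomal hydrolase, which fell by 1.77 (0.0264), and Cyp2d9, of a family of closely similar genes, which fell by 1.84 (0.0299). Averaged over the 11 genes, the difference from the Normal mean was -2.91 on STAM-NON 1, -0.84 and -2.30 on STAM-NON 2 and 3, and -1.08, -1.93 and -0.51 on STAM-INS 1 to 3. The Slco1a1 levels on these arrays were -4.20, 1.36 and 2.14 in STAM-NON and 1.79, 0.46 and 2.25 in STAM-INS. The order of the arrays was thus the same in STAM-INS, whereas STAM-NON 2 and 3 changed places. Whether Slco1a1 and this list share a cause was not tested. In STAM-INS 1 of 11 was called and the median was -0.61.

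**Figure D5:**
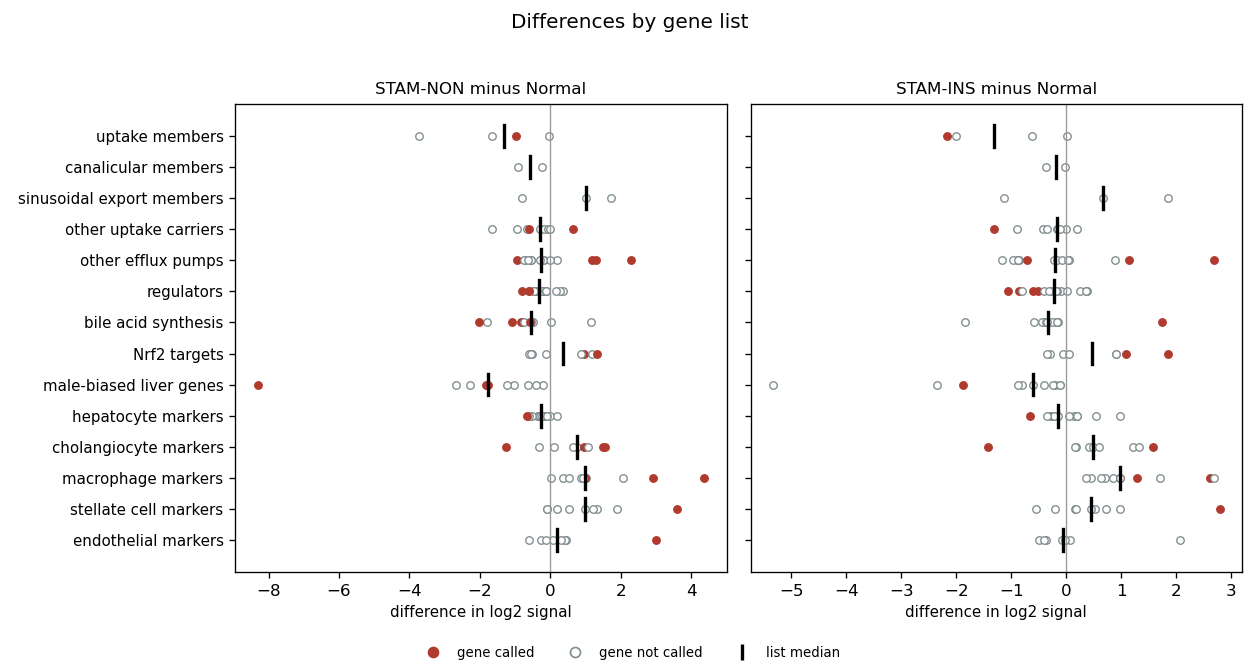
Difference in log2 signal (horizontal axis) from Normal for each tested gene of the member groups and of the comparison lists, in STAM-NON and in STAM-INS. Each point is a gene, red where called, and the black bar is the median of its list, at -1.31 for the uptake members and -1.77 for the male-biased genes in STAM-NON. The horizontal scales of the panels differ.

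The liver label was checked with marker genes, whose counts stand beside 8.93% of all tested genes called lower and 7.87% higher in STAM-NON. In STAM-INS these shares were 7.49% and 6.15%. All 13 hepatocyte markers on the array were tested, and their summed signal on the centred log2 scale was 13.22 to 13.28 in Normal, 12.71 to 13.13 in STAM-NON and 13.06 to 13.22 in STAM-INS. In STAM-NON 1 of the 13 was called lower and 0 higher, and the median difference was -0.25, which turned above 0 with the spike-ins and with quantile normalization. STAM-NON 1, the array lowest in Slco1b2, Slco1a1 and Abcb11, was also lowest for these markers, with a mean difference from Normal of -0.61 against -0.11 on both other STAM-NON arrays. Within its group it was also lowest for the brighter Slc10a1 probe. It was instead the highest of its group for Slco1a4, Abcc3, Abcc4 and Slc51b. For Abcc2, Slc51a and the dimmer Slc10a1 probe it lay between the other STAM-NON arrays. The part of hepatocyte content in the transporter differences was not tested. Macrophage markers were higher, with 4 of 11 called in STAM-NON and 3 of 11 in STAM-INS, among them Trem2, a receptor of lipid-associated macrophages, which rose by 2.93 and 2.61 (adjusted p = 0.0122 and 0.0137), and their summed signal was 6.24 to 6.83 in Normal, 7.08 to 8.04 in STAM-NON and 6.95 to 8.19 in STAM-INS. Of 9 tested cholangiocyte markers, genes of the bile duct lining, which also carries Slc51a and Slc51b, 3 were called higher and 1 lower in STAM-NON, and 1 higher and 1 lower in STAM-INS. The bile duct gene Sox9 rose by 0.96 and 1.57 (adjusted p = 0.0176 and 0.00338), and the anion exchanger gene Slc4a2 fell by 1.26 in STAM-NON and fell by 1.42 in STAM-INS (0.0142 and 0.0077). Of the 9 cholangiocyte markers, 7 had a higher mean in STAM-NON and 8 in STAM-INS, with median differences of 0.76 and 0.48. Their summed signal, which the brightest probes weigh most, went the other way. It was 4.99 to 5.10 in Normal, 3.88 to 4.64 in STAM-NON and 4.02 to 4.19 in STAM-INS. Of 9 stellate cell and 8 endothelial markers 1 each was called higher in STAM-NON, and 1 and 0 in STAM-INS. Of 4 tested markers of intestine and kidney, the other organs rich in these carriers, 0 were called in any comparison. The part of these cell types in the transporter values was not tested.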

How the data were processed

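Liver RNA of 9 male mice was labelled with Cy3 and hybridised to SurePrint G3 mouse 8x60K arrays, whose design is built on mm9. The files deposited by the authors hold Feature Extraction 11.5.1.1 output, with an intensity per spot after background subtraction, not normalised between arrays. The labels name a FAVORGEN kit and the methods a Qiagen kit for the RNA. Outlier-flagged spots were set aside, spots of a probe averaged, and log2 intensity centred on the 75th percentile of the array. Accessions were named through a RefSeq table of GRCm38.p6, used for names only. Probes well above background on all 3 arrays of at least 1 group were tested (26278 of 55681) with limma 3.58.1 in R 4.3.3 on all 9 arrays, two-sided, with Benjamini-Hochberg adjustment. The study names no normalisation or test for the arrays. Its general unpaired two-tailed test, other scalings, background correction (normexp on median signals, the mean signal not being in the files), filters, blocks and left-out arrays were alternatives.

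Members and lists were chosen with earlier results of these data known. All probes of each member are named, and of each other list at most 3 called genes per comparison, by lowest p. Nr1h4 in STAM-INS is named besides, because it encodes the receptor FXR. On simulated data with 200 of 26278 probes changed by 2, 81.5% were recovered for STAM-NON minus Normal, 84.5% for STAM-INS minus STAM-NON and 88% for STAM-INS minus Normal. The number of arrays limits the precision, with 6 residual degrees of freedom. Replicate numbers did not pair the arrays (correlations of deviations from -0.29 to 0.15).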

Additional observations from a re-analysis of the deposited data

Results flagged for a closer look

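ERCC control spots, which are outside every comparison above, were well above background more often on 3 STAM arrays than on any Normal array, where the share was at most 6.60% of 2772 spots. The share was 8.91% on STAM-NON 1, 15.5% on STAM-NON 3 and 18.1% on STAM-INS 1. STAM-NON 1 and STAM-INS 1 are the arrays with the highest Abcc4 signal, and their part in the transporter values was not tested. Without these 3 arrays, an alternative chosen after the data were seen in which the lone STAM-NON array is assumed to vary like the other groups, Slco1a4 was called lower in STAM-NON (-2.40, adjusted p = 0.0209, limma) and in STAM-INS (-2.69, adjusted p = 0.011), and Slco1b2 was not called in STAM-NON (-0.44, adjusted p = 0.446).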

How the results depend on the processing

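Of 787 member differences under up to 27 alternatives, 745 kept their direction. In STAM-INS minus STAM-NON no alternative called a member by its brighter probe, and the dimmer Slc10a1 probe passed in 1 alternative, the methods' t-test unadjusted. In STAM-NON minus Normal the members called (1 as reported) were 2 with the median as centre, normexp, or limma's trend with or without the robust option, and 0 with the percentile over detected probes, E1A spike-ins, quantile normalization, no filter, only the groups compared, the methods' t-test after Benjamini-Hochberg, the slide row as a block or the replicate block. Leaving out single replicates gave 0 to 2. In STAM-INS minus Normal (1 as reported) they were 2 with the median as centre, 3 with only the groups compared, 4 with the methods' t-test unadjusted, 2 without the 3 arrays with most control spots above background, and 0 with the percentile over detected probes, E1A spike-ins, quantile normalization, no filter or the methods' t-test after Benjamini-Hochberg. Leaving out single replicates gave 0 to 2. The replicate block changed no other member count (1 in STAM-INS minus Normal and 0 in STAM-INS minus STAM-NON).

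Some uncalled differences turned sign. In STAM-NON minus Normal, Slc10a1 was 0.13 with the percentile over detected probes, 0.27 with E1A, 0.24 with quantile normalization, 0.11 without the 3 arrays and from -0.12 to 0.032 without single replicates. Abcc2 was 0.067 with E1A, and Abcc4 was -1.24 with the slide row as a block. In STAM-INS minus STAM-NON, Slc10a1 was -0.10 with E1A, -0.10 with quantile normalization, -0.11 without the 3 arrays and from -0.0098 to 0.13 without single replicates. Slc51b was -0.017 with E1A and -0.67 with the slide row, and from -0.31 to 0.53 without single replicates. With the slide row Slco1a4 was 0.51, Abcc2 0.064 and Abcc4 1.15. Without the 3 arrays Slco1a1 was -0.0080 and Slco1b2 -0.23. Without single replicates Slco1a1 ran from -0.25 to 2.92, Slco1a4 from -1.04 to 0.080, Abcc2 from -0.27 to 0.082 and Abcc4 from -1.10 to 0.34. In STAM-INS minus Normal, Slc10a1 was -0.16 with the median, -0.079 with normexp, -0.13 with the mean of its probes and from -0.069 to 0.084 without single replicates. Abcb11 was 0.10 with the percentile over detected probes, 0.14 with E1A, 0.19 with quantile normalization, 0.023 with normexp, 0.084 with the slide row or without the 3 arrays and from -0.15 to 0.084 without single replicates. Abcc4 was -0.091 with the slide row or without the 3 arrays and from -0.091 to 1.07 without single replicates. The cause was not tested.

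Probes called in STAM-NON minus Normal numbered 4220 as reported, 250 without a filter, 2473 with only the groups compared, 15 with the slide row as a block, 2016 with the replicate block, 850 without the 3 arrays and, by the methods' t-test, 7534 unadjusted and 30 after Benjamini-Hochberg. In STAM-INS minus Normal they numbered 3647 as reported, 572 without a filter, 2206 with E1A, 2157 with the slide row and 1872 with the replicate block, and in STAM-INS minus STAM-NON 24 as reported, 8 within slide 1 and 567 without the 3 arrays.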
